A study of Mus musculus with 3 samples.

Results

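Laminins, nidogens and perlecan are the non-collagen backbone of the basement membrane, the thin matrix sheet under epithelia and around muscle and vessels. The 10 genes described here are the laminin chains Lama1, Lama2, Lama4, Lama5, Lamb1, Lamb2 and Lamc1, the nidogens Nid1 and Nid2, and Hspg2, which encodes perlecan. They were chosen by gene name, which takes 14 of the 39429 probes on the array, each printed as 1 spot. All 10 genes and all 14 probes passed the filter on dim spots, within 19667 genes tested. The mutant embryoid bodies carried the genotype Dido3deltaCT+HADidoNT, a Dido3 protein truncated at its C-terminal end together with overexpression of the shared N-terminal part of Dido, where the PHD domain lies. The wild-type embryoid bodies were grown in parallel, and both genotypes were kept in suspension without LIF and taken at day 10. Embryoid bodies are aggregates of differentiating embryonic stem cells and hold many cell types at once. Each of 3 arrays set 1 mutant RNA against 1 wild-type RNA. Mutant RNA carried Cy5 on array 2, whereas on arrays 1 and 3 it carried Cy3. The labels name biological replicates but do not say whether more than 1 cell clone stands behind each genotype.

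A laminin is a trimer of an alpha, a beta and a gamma chain that polymerises into a sheet on the cell surface. Nidogens link the laminin sheet to the collagen IV network, and perlecan, a heparan sulfate proteoglycan, adds a further bridge. In the early mouse embryo the endoderm secretes the trimer of the Lama1, Lamb1 and Lamc1 chains, which parietal endoderm lays down in the thick Reichert's membrane, whereas Lama4 is typical of vessels and mesenchyme, Lama2 of muscle and Lama5 of epithelia.

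The oligonucleotides below are shown because they are what was measured: the Lama4 probe carries the one call among the 10 genes, and the others belong to genes that several probes read. Positions follow the build of the deposited scanner output (mm9), and no exon annotation of that build was used. The Lama4 probe lies at chr10:38825794-38825853 on the plus strand. The Hspg2 probes lie at chr4:137126392-137126451 and chr4:137125445-137125504 on the plus strand. The files give the dimmest Nid1 probe a span from 13530138 to 13555992 on chromosome 13, plus strand, far longer than its 60 bases, so its target is split on the genome.
Lama4: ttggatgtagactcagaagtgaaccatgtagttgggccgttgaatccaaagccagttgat
Nid1 probe c: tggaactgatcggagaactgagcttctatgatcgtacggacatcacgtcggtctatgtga
Hspg2 probe a: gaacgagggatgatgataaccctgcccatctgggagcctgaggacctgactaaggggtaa
Hspg2 probe b: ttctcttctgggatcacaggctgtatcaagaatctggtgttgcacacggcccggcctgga
Where a gene has several probes they are lettered from the brightest, and the brightest stands for the gene in the test over all genes.

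Array 2 differed from the others in its scan. There 25 spots exceeded 100 background units, with a maximum of 75739, whereas the maximum was 55 on array 1 and 60 on array 3. The background was limited to 100 units before correction. When the same correction was run without that limit, 0 genes and 0 probes passed in limma, so every call given here was lost. With no background correction at all, 226 genes passed in limma, Lama4 among them (adjusted p = 0.0398). Median spot intensity was 192 to 288 in green and 150 to 210 in red, and no spot was flagged as saturated. Of the 4 kept probes of Dido1, the altered gene, 2 were higher in the mutant, at 2.35 and 3.03, 1 was lower at -3.60, and the one nearest the 3' end was at -0.54 (all log2 ratios, the last with adjusted p = 0.494 in limma over probes and the others under 0.05).

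The chains of the early embryonic laminin and Nid1 were lower in mutant than in wild-type embryoid bodies on every array, while the vascular chain Lama4 was higher on every array. Ratios are log2 of mutant over wild type, so a positive value means higher in the mutant, and errors are SD over n = 3 arrays. Only Lama4 passed the test (limma with Benjamini-Hochberg adjustment over 19667 genes, threshold 0.05), so 1 of 10 members was called, against 1.65% of all genes. That 1 was higher in the mutant, against 1.27% of all genes, and 0 of 10 were called lower, against 0.386%. At an unadjusted p under 0.05, 4 members were lower (Lama1, Lamb1, Lamc1 and Nid1), against 7.77% of all genes, and 1 was higher, against 12.1%. Lama1, Lamb1, Lamc1, Nid1 and Hspg2 were lower on all 3 arrays, 5 of 10 against 19.1% of all genes. Lama2 and Lama4 were higher on all 3, 2 of 10 against 22.5%, and Lama5, Lamb2 and Nid2 changed sign between arrays. The median log2 ratio of the 10 members was -0.40, beside -0.01 over all genes, and -0.07, -0.82 and -0.33 on arrays 1, 2 and 3. In the fit without the background limit 0 of 19667 genes passed, 0% of those tested, while 3021 (15.4%) had an unadjusted p under 0.05, 5 of them members.

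**Figure D1:**
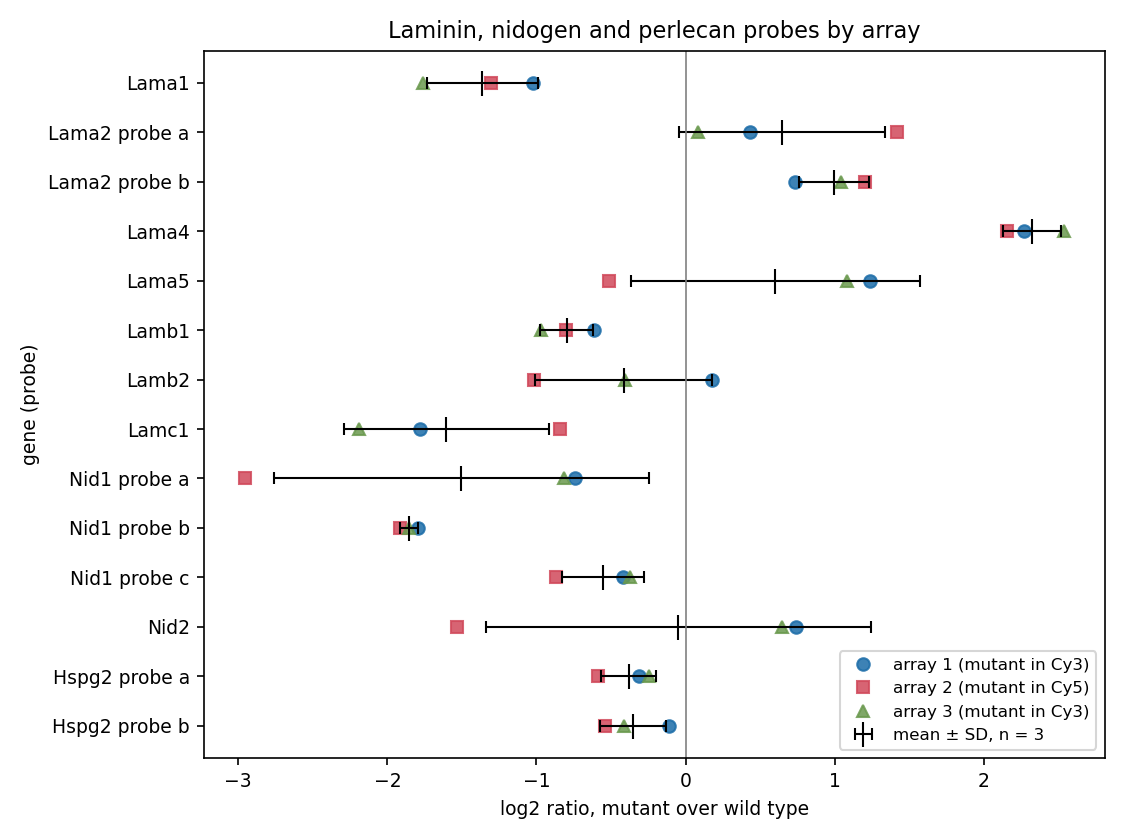
Log2 ratios of mutant over wild type for the 14 probes of the 10 genes, with a point for each array (blue circle, array 1; red square, array 2, the one with the mutant in Cy5; green triangle, array 3) and black bars for mean ± SD, n = 3. Lama4 sits at 2.16 to 2.54 and Lama1 at -1.76 to -1.03, while Lama5 and Nid2 have array 2 on the other side of 0 from arrays 1 and 3.

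The alpha chain gives a laminin its cell-binding end, and the alpha chains differed most from one another. Lama4, found mainly in vessels and mesenchyme, had intensities of 936, 2012 and 1627 in mutant embryoid bodies on arrays 1, 2 and 3, against 194, 451 and 280 in wild type. Every mutant value was above every wild-type value, and the ratio was of like size on all arrays. Without the background limit the log2 ratio was 1.11 on array 2, beside 2.27 and 2.54 on arrays 1 and 3. Lama4 rose by 2.32 ± 0.19 on the log2 scale (5.00-fold, adjusted p = 0.0354), rank 45 of 19667 genes by p. Its call was lost without the background limit (log2 ratio 1.97, adjusted p = 0.197), without replicate 1 (2.35, adjusted p = 0.214), without replicate 3 (2.21, adjusted p = 0.130), with no filter on dim probes (2.32, adjusted p = 0.0559) and with the log ratios of the authors' deposited table (1.76, adjusted p = 0.0599). Over all 18 alternatives its adjusted p in limma ranged from 0.00858 to 0.214.

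Lama1, the alpha chain of the first embryonic basement membranes, went the other way. It had intensities of 34810, 47050 and 15820 in mutant embryoid bodies, against 70850, 116300 and 53590 in wild type. Every mutant value lay below every wild-type value, and array 2 was brightest in both genotypes. The log2 ratios of -1.03, -1.31 and -1.76 averaged -1.36 ± 0.37 (2.57-fold lower), which did not pass (adjusted p = 0.0633, 95% interval -1.95 to -0.77). On the brightest probe of each gene, Lama1 was the one member at least 2-fold lower on every array, as were 1.08% of all genes. Lama4 was the one at least 2-fold higher, as were 3.10%. A less bright Nid1 probe, probe b, was also more than 2-fold lower on every array, at -1.79, -1.91 and -1.86. Within arrays the ratio of Lama4 exceeded that of Lama1 by 3.30, 3.46 and 4.30 (mean 3.69 ± 0.54). No test of this difference between members was run.

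Lama2, the main alpha chain of muscle basement membrane, was dim. Probe a read 135, 320 and 171 in mutant embryoid bodies and 99.9, 120 and 161 in wild type. The groups overlapped, and array 3 showed little difference. Its log2 ratios were 0.43, 1.42 and 0.08 (mean 0.64 ± 0.69, adjusted p = 0.348). Probe b, at chr10:26701254-26701313, read 168, 234 and 257 in mutant embryoid bodies and 101, 102 and 125 in wild type. For probe b all mutant values were above all wild-type values, although wild type was well above background on only 2 of 3 arrays. Its mean of 0.99 ± 0.24 did not pass in the fit over 25496 probes (adjusted p = 0.0788), and without the background limit the mean was 0.63 ± 0.47. Both probes were positive on every array.

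Lama5, the widespread epithelial alpha chain, depended on the array. Its probe at chr2:179911079-179911138 read 29200, 13500 and 17770 in mutant embryoid bodies and 12380, 19240 and 8396 in wild type. The mutant was higher on arrays 1 and 3 and lower on array 2, and the groups overlapped. The log2 ratios of 1.24, -0.51 and 1.08 averaged 0.60 ± 0.97 (adjusted p = 0.482, 95% interval -0.45 to 1.66). Since only array 2 had the mutant in Cy5, its dye orientation and its replicate cannot be told apart. Without replicate 2, which leaves only arrays with the mutant in Cy3, Lama5 had a ratio of 1.16 (adjusted p = 0.0197 in limma). In that fit 5082 of 19667 genes were called.

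The beta and gamma chains shared by most laminins followed Lama1 more than Lama4. Lamb1, the beta chain of the early trimer, had intensities of 53570, 62790 and 32850 in mutant embryoid bodies, against 82100, 109200 and 64420 in wild type. All mutant values were below all wild-type values by a narrow margin, 62790 against 64420. The log2 ratios of -0.62, -0.80 and -0.97 averaged -0.80 ± 0.18 (1.74-fold lower, adjusted p = 0.117). Lamc1, the gamma chain present in nearly all early laminins and the chain that nidogen binds, had intensities of 19350, 39310 and 12190 in mutant embryoid bodies, against 66420, 70620 and 55540 in wild type. The groups did not overlap, and the mutant value was highest on array 2. The log2 ratios of -1.78, -0.85 and -2.19 averaged -1.60 ± 0.69 (3.04-fold lower, adjusted p = 0.0815). This was the lowest mean among the 10 genes on their brightest probes, while probe b of Nid1, a less bright one, averaged -1.85. Within arrays Lama1 differed from Lamb1 by -0.57 ± 0.20 and from Lamc1 by 0.24 ± 0.63 on the log2 scale. Over members, 4 of 10 had mutant intensities all below wild type, against 8.58% of all genes, and 1 of 10 all above, against 13.0%.

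Lamb2, the beta chain of synapse and kidney laminins, differed little. It had intensities of 1633, 1718 and 1612 in mutant embryoid bodies and 1447, 3476 and 2135 in wild type. The mutant values were nearly alike, and the wild-type values spanned them on both sides. The log2 ratios were 0.18, -1.02 and -0.41 (mean -0.42 ± 0.60, adjusted p = 0.492, 95% interval -1.16 to 0.33).

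**Figure D2:**
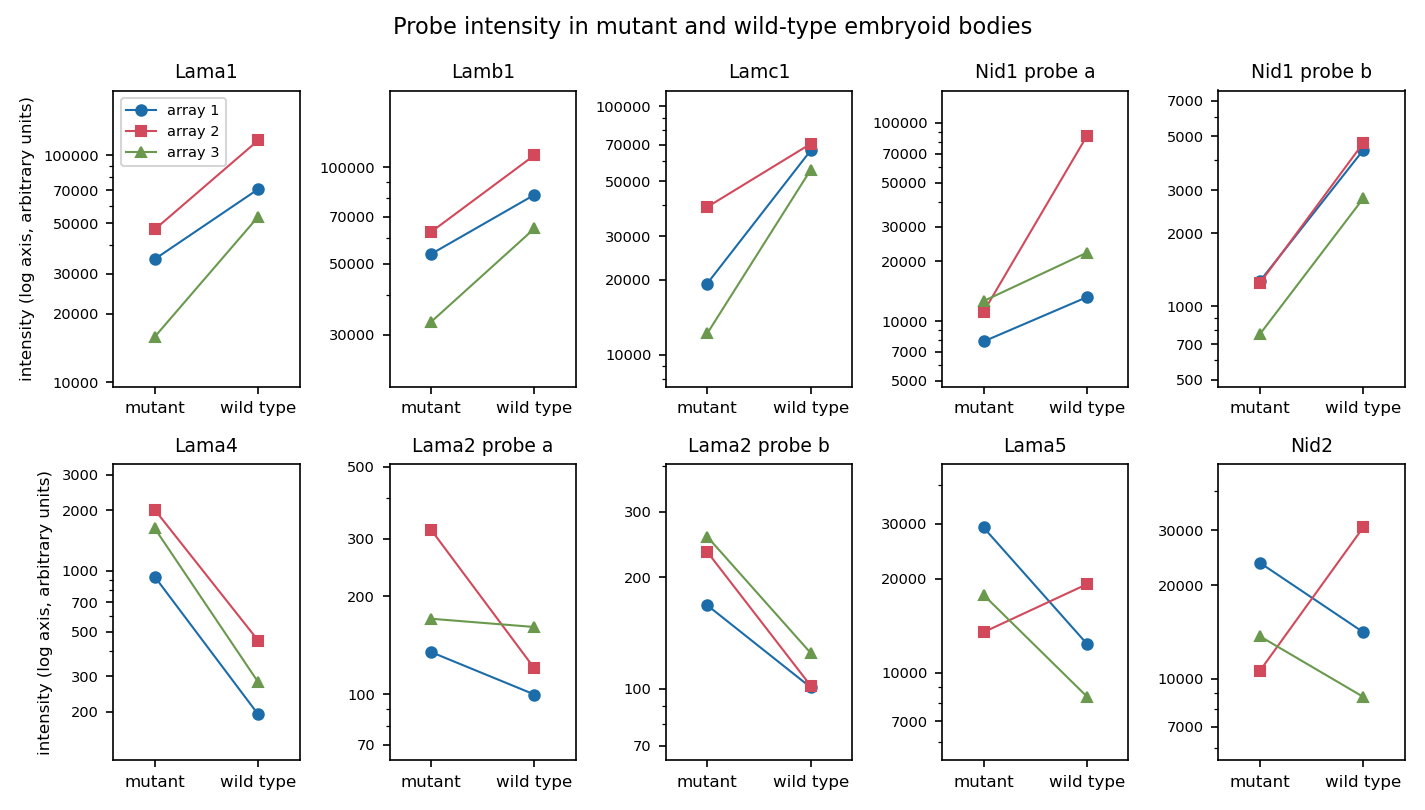
Intensity of 10 probes of 8 genes on a log axis in arbitrary units, mutant at the left and wild type at the right of each panel, with a line for each array (blue circle 1, red square 2, green triangle 3). All lines climb towards wild type for Lama1, Lamb1, Lamc1 and Nid1 and fall towards it for Lama4 and Lama2, whereas in Lama5 and Nid2 the line of array 2 crosses the others; vertical scales differ between panels.

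Nid1 encodes the main nidogen of embryonic basement membranes, and its 3 probes were all lower in the mutant but by different amounts. Probe a, at chr13:13604435-13604494, had intensities of 7893, 11140 and 12620 in mutant embryoid bodies, against 13220, 86200 and 22170 in wild type. The groups did not overlap, and the wild-type value on array 2 stood far above the other 2. Its log2 ratios were -0.74, -2.95 and -0.81 (mean -1.50 ± 1.26, adjusted p = 0.203). Probe b, at chr13:13602780-13602839, had intensities of 1269, 1248 and 769 in mutant embryoid bodies, against 4395, 4699 and 2783 in wild type. These groups were well apart, and the log2 ratios of -1.79, -1.91 and -1.86 were nearly equal on all arrays. In the fit over 25496 probes, where 2.60% were called and 0.682% were called lower, probe b fell by 1.85 ± 0.06 on the log2 scale (3.61-fold lower, adjusted p = 0.0331). Without the background limit probe b was at -1.71 ± 0.19 and did not pass (adjusted p = 0.166). Probe c was dim, with 101, 142 and 124 in mutant embryoid bodies and 135, 260 and 160 in wild type, and well above background in the mutant on 2 of 3 arrays. It averaged -0.55 ± 0.27 (adjusted p = 0.225). The rule that takes the brightest probe therefore sets whether Nid1 counts as called: with probe b in its place it would be, with probe a it is not.

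Nid2 encodes the second nidogen, which can stand in for Nid1 in many tissues. It had intensities of 23590, 10590 and 13690 in mutant embryoid bodies and 14100, 30680 and 8735 in wild type. As for Lama5, the mutant was higher on arrays 1 and 3 and lower on array 2. The log2 ratios of 0.74, -1.53 and 0.65 averaged -0.05 ± 1.29 (adjusted p = 0.973, 95% interval -1.39 to 1.30). Without replicate 2 the ratio turned to 0.70 (adjusted p = 0.0434 in limma). That fit held only arrays with the mutant in Cy3 and called 5082 of 19667 genes. Within arrays Nid2 exceeded probe a of Nid1 by 1.49, 1.42 and 1.46, and both ratios were lowest on array 2. Against probe b of Nid1 the same difference was 2.54, 0.38 and 2.50. Against probe c it was 1.16, -0.66 and 1.02, negative on array 2.

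Perlecan, encoded by Hspg2, carries heparan sulfate chains that hold growth factors in the basement membrane. Probe a had intensities of 11610, 9786 and 6410 in mutant embryoid bodies and 14420, 14730 and 7596 in wild type. The groups overlapped, since array 3 was dim in both genotypes, but the mutant was lower on each array. The log2 ratios of -0.31, -0.59 and -0.24 averaged -0.38 ± 0.18 (1.30-fold lower, adjusted p = 0.359). Probe b gave -0.35 ± 0.22. The 95% interval of the gene ran from -0.88 to 0.12.

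Other basement membrane genes were taken as lists of known roles. Over all genes, 22.5% were higher and 19.1% lower on all 3 arrays, and 1.27% rose and 0.386% fell in limma. Among 22 measured components of 25 listed, 1 rose, 0 fell, 9 were higher and 3 lower on all arrays, and the median log2 ratio was 0.26. The 3 lower ones were Col4a1 at -1.87 ± 0.76 and Col4a2 at -1.57 ± 0.58, which form the main collagen IV trimer (adjusted p = 0.0696 for each), and Tinagl1, a matrix glycoprotein gene, at -1.42 ± 0.59 (adjusted p = 0.0863). Col4a2 and Tinagl1 are named because the count is small, after their values were seen. The one that rose was Col4a6, a collagen IV chain of restricted distribution, by 3.25 ± 0.83 (adjusted p = 0.0420), on a probe that was well above background in wild type on 2 of 3 arrays. A second Col4a6 probe read 0.36 ± 0.42. Apart from Col4a6, the components with the smallest p were Frem1 at 1.58 ± 0.54 and Fbln2, a fibulin, at 1.74 ± 0.65 (adjusted p of 0.0659 and 0.0672). Of the 4 remaining laminin chains measured, none had 1 sign on all arrays. Lamb3 and Lamc3 were at 0.60 ± 1.18 and 0.13 ± 0.32, and 0 of 4 passed in limma or had an unadjusted p under 0.05.

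Of 9 measured receptors of 13 listed, 1 rose and 0 fell, beside 1.27% and 0.386% of all genes. Itga1, the collagen- and laminin-binding integrin alpha 1 subunit, rose by 1.75 ± 0.19 (3.37-fold, adjusted p = 0.0420), while a second, less bright Itga1 probe read 0.27 ± 0.37. The laminin receptor subunit Itga6 was at 0.55 ± 0.43 and the syndecan Sdc4 at 1.45 ± 1.23 (adjusted p of 0.307 and 0.209). Among 19 measured genes of matrix assembly and turnover of 20 listed, 1 rose and 0 fell, beside 1.27% and 0.386% of all genes. Mmp14, a membrane-bound metalloproteinase that cuts matrix proteins, rose by 2.69 ± 0.30 (6.45-fold, adjusted p = 0.0354). The secreted protease gene Adamts1 was at 1.29 ± 0.41 (adjusted p = 0.0713). Calls of Col4a6, Itga1 and Mmp14 were lost without the background limit, with adjusted p of 0.181, 0.310 and 0.189.

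**Figure D3:**
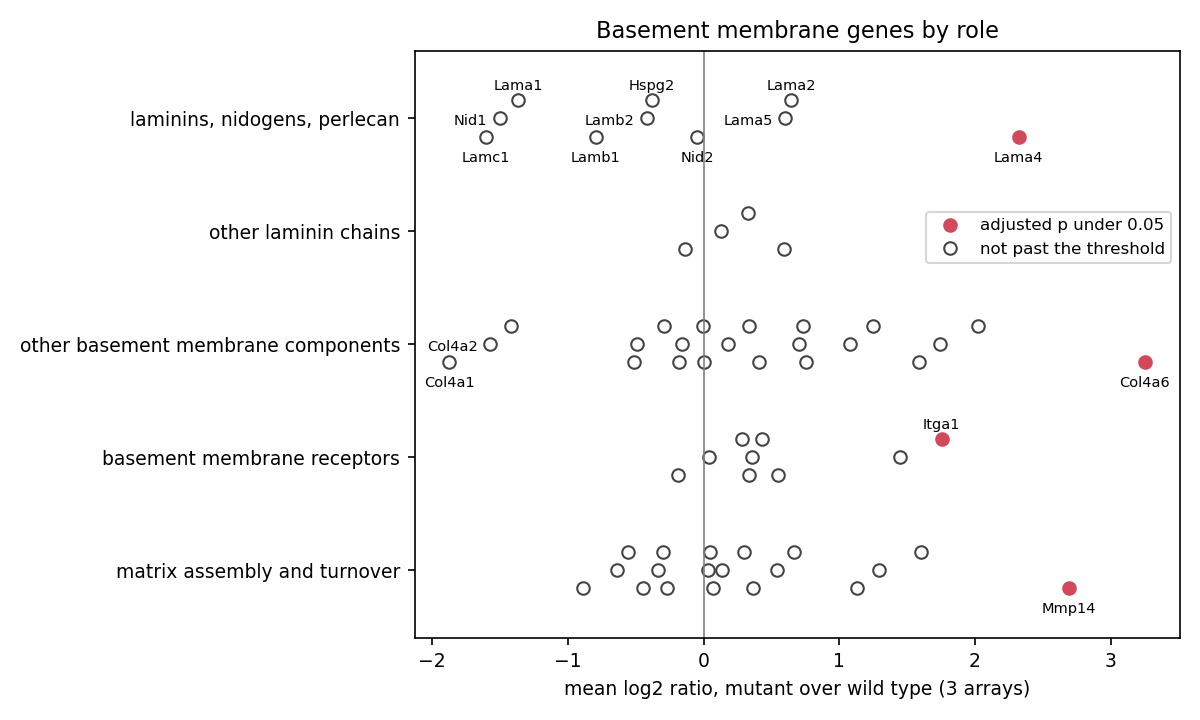
Mean log2 ratio of mutant over wild type over 3 arrays for each measured gene, in rows by role, with red points for genes past the adjusted threshold of 0.05 and open points for the others (vertical offsets within a row only separate points). Lama4, Col4a6, Itga1 and Mmp14 are the 4 red points, all right of 0, and Lamc1, Nid1, Lama1, Col4a1 and Col4a2 lie left of -1.

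Markers of the cell types that make these chains also differed between the genotypes. Embryoid bodies are mixed, and in bulk RNA fewer cells of a type and less RNA per cell cannot be told apart. Over all genes, 19.1% were lower and 22.5% higher on all 3 arrays, and 0.386% fell and 1.27% rose in limma. At an unadjusted p under 0.05 in limma, 7.77% of all genes were lower and 12.1% higher. Of 12 parietal endoderm markers 7 were lower on all arrays, among them Col4a1 and Col4a2, and 1 was higher. The higher one was Sparc, named after its values were seen, at 1.24 ± 0.41 (adjusted p = 0.077 in limma). In the test 1 fell, Thbd, the thrombomodulin gene, at -3.05 ± 0.41 (adjusted p = 0.0354). The summed intensity of the 12 markers was 186900 to 268000 in mutant embryoid bodies and 272600 to 324700 in wild type. That sum holds the matrix genes Col4a1 (18980 in mutant, 69480 in wild type), Col4a2 (14580 and 43320) and Sparc (90660 and 38250). No sum without them was taken, so it does not stand apart from the matrix ratios. Leaving out Sparc, Col4a1 and Col4a2, which are matrix genes themselves, 5 of 9 were lower on all arrays, with a median of -0.47. Visceral endoderm markers mostly ran the other way, with 15 of 19 higher and 1 lower on all arrays. Their sums were 646900 to 1130000 in mutant embryoid bodies and 166800 to 308300 in wild type. The lower one was Lrp2, named after its values were seen, at -0.62 ± 0.27 (adjusted p = 0.200 in limma). Among the 19 markers Ctsh, Ttr and Apoa4 rose. Of 7 endoderm transcription factors 0 passed in limma, 1 had an unadjusted p under 0.05 (Hnf4a at 2.08 ± 1.05, adjusted p = 0.0901), and Sox7 and Sox17 were at -0.60 ± 0.61 and 0.50 ± 0.50. Pluripotency markers had 1 of 7 higher and 1 lower on all arrays, and 0 passed in limma, with 1 at an unadjusted p under 0.05.

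Marker lists were also taken for vessels, muscle and mesenchyme, where Lama4 and Lama2 are typical. The shares over all genes were 22.5% higher and 19.1% lower on all 3 arrays, with 1.27% called higher and 0.386% lower. Of 12 endothelium markers 9 were higher on all arrays and 2 rose, Flt1 and Kdr, with sums of 22950 to 35340 in mutant embryoid bodies and 6506 to 7889 in wild type. Less bright probes of these genes showed no such size, at 0.19 ± 0.59 and 0.17 ± 0.19 for Flt1 and 0.40 ± 0.78 for Kdr, against 3.06 ± 0.39 and 2.27 ± 0.59 on the probes that stand for them. Esam, an endothelial adhesion molecule named after its values were seen, was lower on all arrays at -0.80 ± 0.49 (adjusted p = 0.189). In wild type the signal of Erg did not clear background on any array. Of 10 muscle markers 9 were higher on all arrays and 3 rose (sums of 26080 to 97870 in mutant embryoid bodies and 6582 to 12210 in wild type), and of 11 measured mesenchyme markers of 13 listed 9 were higher and 2 rose (sums of 204500 to 270500 in mutant embryoid bodies and 56720 to 105300 in wild type). Neural markers were lower on all arrays for 10 of 12. In limma 0 fell, though 10 had an unadjusted p under 0.05, beside 7.77% of all genes lower at that level. The size depended on the array, with neural medians of -2.74, -0.52 and -3.28 on arrays 1, 2 and 3. Neural sums were 3758 to 5449 in mutant embryoid bodies and 6425 to 40950 in wild type. The part of these markers in the laminin and nidogen ratios was not tested. Each measured marker was well above background on all arrays in at least 1 genotype, because the filter required it.

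Promoter sequence was at hand for 6 of the 10 genes (RefSeq, GRCm38.p6), and the stretches upstream of the start are shown for Lamb1 and Nid1, both lower on every array, and for Lama2, higher on every array. Each is the 250 bases before the start and has capitals for motif matches on either strand. The motif GGGCGG is the GC box. The CCAAT box was searched by the letters in its name, and the TATA box as TATAAA. The GATA motif was searched as GATAA, and capitals of motifs that overlap would run together. The Lamb1 stretch is chr12:31265043-31265292 on the plus strand, that of Nid1 chr13:13437352-13437601 on the plus strand, and that of Lama2 chr10:27616943-27617192 on the minus strand.
Lamb1: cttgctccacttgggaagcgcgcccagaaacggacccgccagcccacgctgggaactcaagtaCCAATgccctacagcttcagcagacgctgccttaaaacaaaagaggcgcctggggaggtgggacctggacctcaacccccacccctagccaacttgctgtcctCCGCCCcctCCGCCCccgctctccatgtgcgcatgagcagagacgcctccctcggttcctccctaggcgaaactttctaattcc
Nid1: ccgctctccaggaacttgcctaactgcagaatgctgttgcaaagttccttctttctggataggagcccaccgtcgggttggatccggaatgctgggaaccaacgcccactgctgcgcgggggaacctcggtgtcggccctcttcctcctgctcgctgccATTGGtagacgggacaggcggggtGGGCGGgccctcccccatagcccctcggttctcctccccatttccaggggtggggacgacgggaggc
Lama2: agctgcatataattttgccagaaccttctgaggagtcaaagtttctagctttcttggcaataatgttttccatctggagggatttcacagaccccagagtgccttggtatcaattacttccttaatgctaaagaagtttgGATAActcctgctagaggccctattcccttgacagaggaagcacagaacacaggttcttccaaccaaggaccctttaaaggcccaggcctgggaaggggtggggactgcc
Lamb1 held 2 GC boxes and 1 CCAAT match, Nid1 held 1 of each, and Lama2 held neither but 1 GATAA. Over 32851 promoters of the same length, 32.7% held a GC box, 33.8% CCAAT and 22.6% GATAA. GC content was 62.0% for Lamb1, 64.4% for Nid1 and 47.2% for Lama2, beside a median of 52.4%. Of the remaining 3 members with sequence, Hspg2 and Lama5 held 5 and 4 GC boxes and Lamb2 none of the 4 motifs, and no member held TATAAA. A match describes letters in this window only.

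The members differed in how far their ratios moved with the processing. Over 18 other settings the Lama1 ratio stayed between -1.53 and -1.17, that of Lamc1 between -1.98 and -1.31, that of Lamb1 between -0.93 and -0.67 and that of Lama4 between 1.76 and 2.69. Nid1 ranged from -1.88 to -0.78, and the weakest value came without replicate 2. Lama2 ranged from 0.23 without the background limit to 1.41 with the scanner's log ratio, and was at 0.26 without replicate 2. Lama5 ranged from 0.28 without replicate 1 to 1.16 without replicate 2, and Lamb2 from -0.71 without replicate 1 to -0.12 without replicate 2. Nid2 ranged from -0.44 without replicate 1 to 0.70 without replicate 2, and Hspg2 from -0.45 to -0.28. With a dye effect as a term Lama1, Lamb1, Lamc1 and Nid1 passed as lower (adjusted p of 0.0339, 0.0487, 0.0205 and 0.0126) and Lama2 as higher (0.0446), beside 2534 genes in all. In that fit array 2 is matched exactly, so the error comes from arrays 1 and 3 alone.

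**Figure D4:**
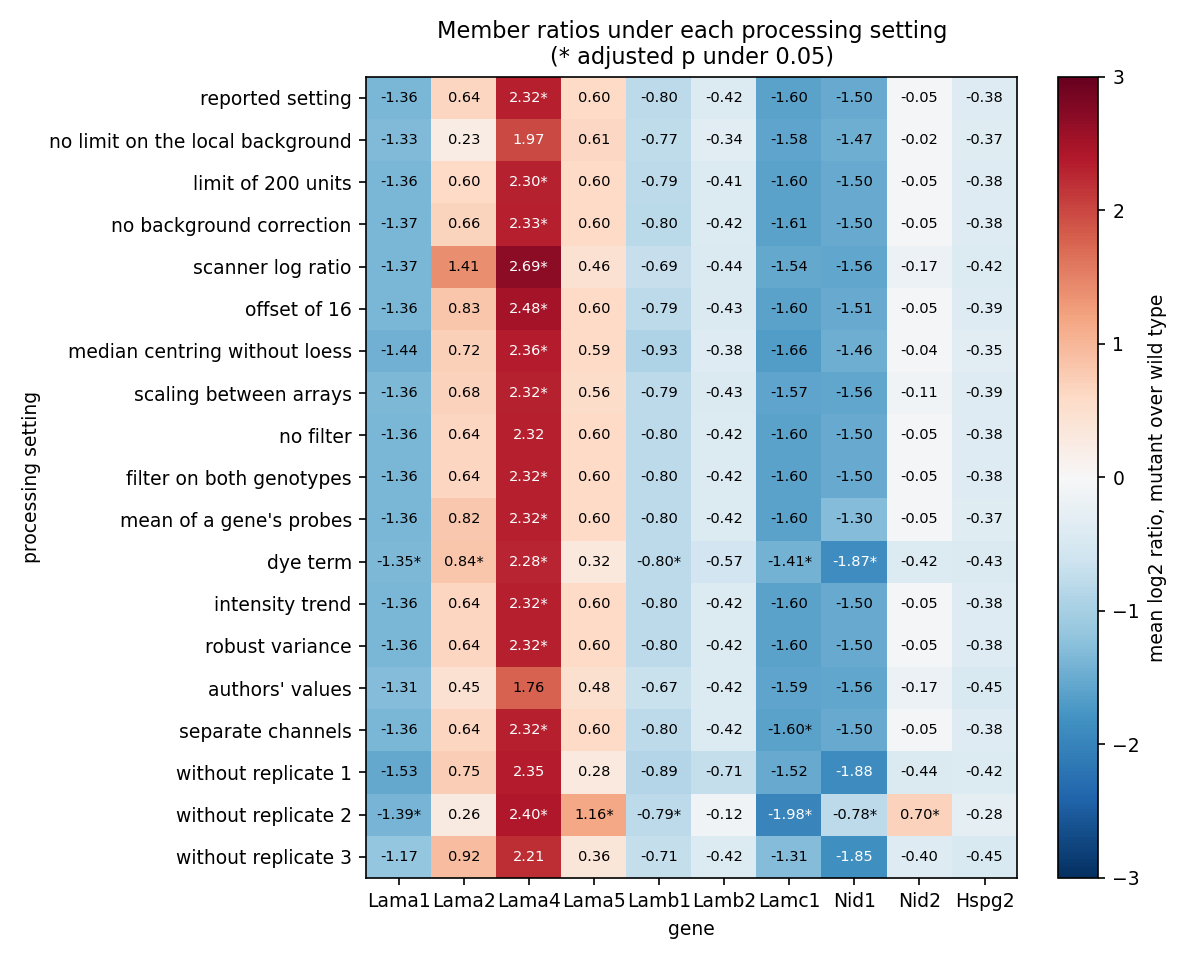
Mean log2 ratio of mutant over wild type for each gene (columns) under the reported setting and each alternative (rows), with colour from blue (lower in the mutant) to red (higher) and an asterisk for an adjusted p under 0.05. Lama4 is red in every row and Lama1, Lamb1 and Lamc1 blue in every row, while Nid2 changes colour without replicate 2.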

How the data were processed

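Total RNA of day 10 embryoid bodies was amplified, and 300 ng each of Cy3 and Cy5 cRNA went on an Agilent two-colour mouse array, per the labels' protocols. The deposited files hold spot and background intensity and a log10 ratio; per the file headers, the software was Feature Extraction 10.7.3.1. In the value table deposited by the authors the unit is a log2 ratio. Limma is the tool listed in the submitters' processing notes, with no version, and background correction and centring of that table stay unknown. Its columns, with medians of -0.01, 0.02 and -0.01, correlated with scanner ratios turned as mutant over wild type (r of 0.95, 0.94 and 0.94 over 22499 probes), so its direction was taken as the same.

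In R 4.3.3 with limma 3.58.1, intensities were corrected with normexp (offset 50) after limiting local background to 100 units, then loess-normalized with control spots at weight 0. Outlier spots were dropped and repeated spots averaged. The filter asked for a signal well above background on each of the 3 arrays in mutant or wild type, which 25496 of 39429 probes met, and the brightest probe stood for a gene. Symbols came from RefSeq (GRCm38.p6) by accession for 27234 probes, by symbol for 3576 and by synonym for 565, while 8054 were left as the array named them. Whether a mean log2 ratio differed from 0 was tested two-sided, by lmFit and eBayes. Intensities are after Aquantile scaling, in arbitrary units. The number of arrays, 3, limits the precision. Whether replicates came from separate cultures is not stated beyond "biological", so p-values measure the spread between these samples.

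Members, lists and the background limit were chosen with earlier results of these data known. All members were named, and from each other list the genes that passed or otherwise up to 3 with the smallest p, except where the text says that a gene was named after its values were seen, and some items are not reported here. The fits were tested on simulated data, where 100 of 19667 genes were changed by 1 and 100 by 2 on the log2 scale. They recovered the sizes put in, but no gene given a change there passed the adjusted threshold. That threshold depends on the share of genes changed, and in the data 325 genes passed. The simulation therefore does not give how often a changed gene passes in the fit used here. A gene that missed the threshold here is not shown to be unchanged. Alternatives were other limits, background steps, normalizations, filters, probe rules, variance models, a dye term, separate channels, the authors' values and leaving out each replicate.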

Additional observations from a re-analysis of the deposited data

How the results depend on the processing

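In the fits over all genes, 325 genes were called at the reported setting, 1 member (Lama4) higher and 0 lower (limma; 4 lower members at an unadjusted p under 0.05). The count over all genes was 769 with the scanner's log ratio, 733 with an offset of 16, 605 with an intensity trend, 1310 with separate channels, 2534 with a dye term and 1352 at a threshold of 0.1. It was 0 without the background limit, with no filter and with the authors' values, where 0 members were called either (3021, 4831 and 3838 genes at an unadjusted p under 0.05). Members called higher and lower were 2 and 4 with a dye term, 1 and 1 with separate channels (Lamc1 lower) and 1 and 2 at a threshold of 0.1 (Lama1 and Lamc1 lower). Without replicate 1, 2 or 3 the genes called ranged from 0 to 5082, members called higher from 0 to 3 and members called lower from 0 to 4; the highest counts came without replicate 2, where dye and genotype are not separated, and without replicate 1 or 3 no gene passed (1659 and 2370 at an unadjusted p under 0.05). Nid2, at -0.05, ranged from -0.44 to 0.70 with 1 replicate left out and turned positive without replicate 2; no other member changed sign in any setting run. The cause of these differences was not tested, beyond fewer arrays or more genes tested where the setting itself brings them. The member median stayed within the spread between arrays. The count of members with 1 sign on all arrays was 7 in every setting with 3 arrays and without replicate 3. It was 8 without replicate 1 and 9 without replicate 2, where fewer arrays had to agree. No paired analysis was possible because each array is already a ratio within 1 numbered pair, so pairing is part of every fit. Signal over background limits Lama2 and Nid1 probe c, the dimmest member probes.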
